A study of Mus musculus with 2 samples.

Results

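The fatty acid genes described here are 37 mouse genes for binding and uptake of fatty acids, their activation to acyl-CoA, their transport into mitochondria and their oxidation, with ketone body enzymes, peroxisomal enzymes and 3 transcriptional regulators. They were taken as a list of gene symbols, which was drawn up with earlier results of these data known. Of the 37, 34 had a row among the 19294 gene symbols of the count matrix, and Fabp1, Cd36 and Slc27a2 were not analysed here. Colon crypt cells came from C57BL/6 mice labelled Tcf4GfpCre/+ RosamTmG/+, without pretreatment and between 4 and 10 months of age. Both deposited samples were labelled Tcf4 Lin- and Tcf4 DP, 1 pooled from samples 1 to 3 and the other from samples 4 to 6, and the cells were sorted by the reporter and mixed with human cells before capture. The Cre recombinase of this model is driven by Tcf4, a Wnt pathway transcription factor whose gene symbol is Tcf7l2. The Lin- sort therefore holds crypt cells that the reporter did not mark as having expressed Tcf4, and not the colon epithelium as a whole. Besides Lin- cells, the paper profiled a sort it names MIX, with both reporter colours, and describes these cells as having newly activated Tcf4. According to the paper, the Cre allele also disrupts Tcf4, so the mice are heterozygous for it. Single cells were profiled by Drop-seq, in which each unique molecular identifier (UMI) stands for 1 captured transcript.

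Fatty acids enter cells by diffusion and through transport proteins, are held in the cytosol by fatty acid binding proteins, and are joined to coenzyme A by the acyl-CoA synthetases. The carnitine shuttle carries long chains into mitochondria, where acyl-CoA dehydrogenases, hydratases, hydroxyacyl-CoA dehydrogenases and thiolases remove acetyl-CoA units in repeated turns, and the electron transfer flavoprotein passes the electrons on to the respiratory chain. In the colon, absorptive colonocytes are known for drawing much of their energy from the oxidation of fatty acids made by gut bacteria.

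The matrix held 1117 barcodes and 1023641 UMIs, and the authors' published list of cells assigns 516 barcodes to 4 clusters, which were natural intraepithelial lymphocytes (nIELs, 190 cells), induced intraepithelial lymphocytes (iIELs, 186), epithelial Pigr+ cells (93) and B cells (47). A list of its epithelial part assigns 106 cells to 3 subclusters, namely 32 stem cells (69046 UMIs), 32 secretory precursors (128664 UMIs) and 42 absorptive precursors (151780 UMIs). Barcodes end in X1 or X2, neither suffix was assigned to a pool or a sort by the sources, and no barcode was shared by both sets. All cells were therefore 1 sample, no test between groups was possible, and the values of both barcode sets are given side by side. Levels are UMIs per 1000000 UMIs (CPM) with exact Poisson 95% intervals, and folds have exact binomial 95% intervals. All intervals cover counting error only. A level compares 1 gene between groups of cells, not genes with each other, since capture differs between transcripts. The clusters were built from these same counts, so folds between them are descriptions. Marker genes followed the lineage labels, but the authors named the subclusters by most of these secretory and absorptive genes. That match was therefore fixed in advance and is no separate support for the labels. The 6 secretory markers together stood at 62294 CPM in secretory precursors against 19378 in stem cells and 5884 in absorptive precursors, and 7 absorptive markers at 6483 CPM in absorptive precursors against 1781 in stem cells and 1065 in secretory precursors. The T cell markers summed to between 14.5 and 112 CPM in the 3 subclusters, with Cd3e and Cd8a at 0 in all of them. Cd3d, Cd3g, Cd7 and Ccl5 were detected in absorptive precursors. The B cell markers summed to 174 CPM in stem cells, 46.6 in secretory and 217 in absorptive precursors. They stood at 35.3 CPM in the IELs outside the subclusters and 14522 in B cells. Of the macrophage markers, 5 of 6 or all 6 were at 0 in each subcluster.

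Some cells stood apart. Of the 106 subcluster cells, 14 are listed as IELs in the table of all cells (11 as iIELs and 3 as nIELs), 6 of them in the stem cells, 3 in the secretory precursors and 5 in the absorptive precursors. The deepest 4 cells, all among these 14 and with 19945 to 23205 UMIs each, held 24.9% of all subcluster UMIs. They held 27.8% of the subcluster UMIs of the fatty acid genes (359 of 1291), and 359 of the 415 in the 14 cells. Leaving out the 14 cells therefore mostly leaves out these 4. Of 5 subcluster cells with a UMI of Cd3d, Cd3e, Cd3g, Cd79a, Cd79b or Ms4a1, which are T or B cell genes, 4 were absorptive and 1 was secretory. For that reason IEL values below come from the 362 IELs outside the subclusters, and folds without the 14 cells are given where they moved by over 1.5 times or crossed 2-fold. Of the assigned barcodes, 35 differed from another of the same set at a single base, so some cells may be counted under more than 1 barcode.

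Promoter sequences are shown for the members on which the results turn. They are those of Hao2 and Fabp2, which held the most UMIs of the set in absorptive precursors, of Acadm, the beta-oxidation enzyme with the highest fold there, and of Hadha and Hadhb, whose products form 1 protein complex. They come from RefSeq (GRCm38.p6), run from 250 bases before to 50 bases after the start site and are written 5′ to 3′ on the strand of the gene. Capitals mark AGGTCA, the core of the binding motif of nuclear receptors such as the PPARs, on either strand. On chromosome 3, Hao2 lies on the minus strand (chr3:98893181-98893480), Fabp2 on the plus strand (chr3:122894822-122895121) and Acadm on the minus strand (chr3:153944594-153944893).
Hao2: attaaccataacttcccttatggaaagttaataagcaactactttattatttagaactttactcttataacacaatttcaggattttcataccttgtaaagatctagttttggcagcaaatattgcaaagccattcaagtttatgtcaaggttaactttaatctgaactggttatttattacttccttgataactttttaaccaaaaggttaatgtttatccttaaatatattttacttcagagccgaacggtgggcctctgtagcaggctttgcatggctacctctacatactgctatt
Fabp2: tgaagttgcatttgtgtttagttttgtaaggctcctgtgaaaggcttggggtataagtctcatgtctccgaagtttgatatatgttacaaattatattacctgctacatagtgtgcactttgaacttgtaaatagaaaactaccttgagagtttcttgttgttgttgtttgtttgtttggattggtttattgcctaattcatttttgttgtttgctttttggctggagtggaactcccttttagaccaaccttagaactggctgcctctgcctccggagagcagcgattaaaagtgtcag
Acadm: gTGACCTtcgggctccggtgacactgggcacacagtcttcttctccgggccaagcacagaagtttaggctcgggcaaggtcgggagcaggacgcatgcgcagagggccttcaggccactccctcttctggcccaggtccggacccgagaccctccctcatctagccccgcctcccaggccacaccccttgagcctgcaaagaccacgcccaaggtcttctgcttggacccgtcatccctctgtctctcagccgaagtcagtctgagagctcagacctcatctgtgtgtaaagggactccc
Hadha and Hadhb lie head to head on chromosome 5, with start sites at 30154980 (minus strand) and 30155253 (plus strand), 273 bases apart, so their promoter windows share 228 bases. The shared stretch (chr5:30155003-30155230) is written on the strand of Hadhb.
Hadha and Hadhb: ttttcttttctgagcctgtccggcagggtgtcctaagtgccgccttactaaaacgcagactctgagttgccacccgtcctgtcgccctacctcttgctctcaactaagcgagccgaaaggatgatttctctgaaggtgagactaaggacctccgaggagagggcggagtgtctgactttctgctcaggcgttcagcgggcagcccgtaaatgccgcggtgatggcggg
The Hao2 and Fabp2 windows had a GC content of 32.3% and 38.7%, against a median of 60.7% over 33 windows of members and 52.7% over all 32851 promoters. Acadm, Acadvl, Cpt1a, Echs1 and Pparg held AGGTCA, that is 5 of the 29 members with a promoter in the table (17.2%), while 16.3% of all promoters did. The pair of AGGTCA motifs in the same direction with 1 base between, known as DR1, was in 0.0396% of all promoters and the HNF4 core CAAAGTCCA in 0.475%, and neither was in the window of a member.

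Taken as a sum, the 34 genes were at their highest level in the absorptive precursors. They had 763 UMIs or 5027 CPM there (95% interval 4677 to 5397), 216 UMIs or 3128 CPM in stem cells (2725 to 3575) and 312 UMIs or 2425 CPM in secretory precursors (2163 to 2709). The absorptive level was 1.88-fold that of the other epithelial cells (1.68 to 2.11), the secretory level 0.55-fold (0.48 to 0.62) and the stem cell level 0.82-fold (0.70 to 0.95). The order of the levels was the same in both barcode sets, with 5083 and 4751 CPM in absorptive precursors, 2881 and 3275 CPM in stem cells and 2388 and 2603 CPM in secretory precursors for X1 and X2. X2 held only 15 stem cells and 4 secretory precursors, and the deepest stem cell held 23205 of the 69046 stem cell UMIs. The place of stem cells above secretory precursors within each set therefore rests on few cells and is uncertain. Fabp2 and Hao2 carried part of this. Without them, a choice made after their values were seen, the absorptive fold was 1.52 (1.34 to 1.73) and the stem cell fold 0.97 (0.83 to 1.14). CPM is a share of all transcripts, and the secretory precursors devoted 62294 CPM to the 6 secretory markers alone. Whether this had a part in their lower level was not tested.

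In single cells, the 34 genes took a median of 0.464% of the UMIs of an absorptive precursor (lowest 0%, highest 1.19%), 0.275% of a stem cell (0% to 0.646%) and 0.247% of a secretory precursor (0% to 0.472%). The groups overlapped. Of the 42 absorptive precursors, 21 lay above their own median, as did 7 of 32 stem cells and 2 of 32 secretory precursors. A median absorptive precursor held UMIs of 7 of the genes and a median stem cell UMIs of 3, at median depths of 1939.5 and 995.5 UMIs. In the 362 IELs the median was 0.0997% and 6 cells exceeded the absorptive median.

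**Figure D1:**
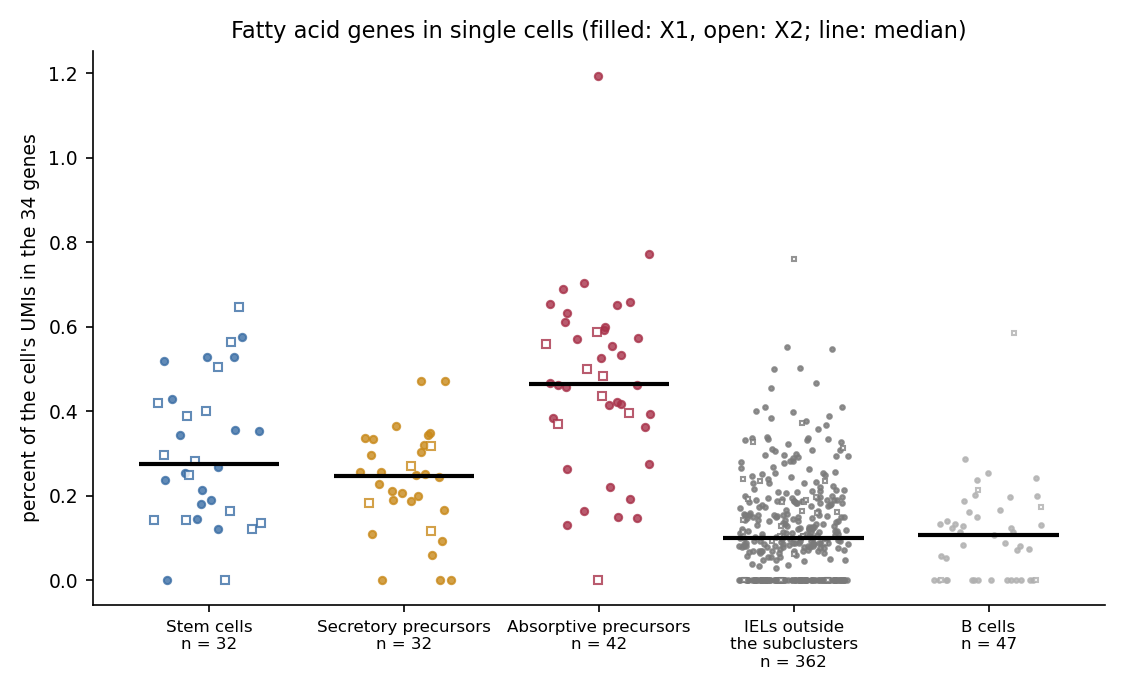
Percent of each cell's UMIs that fall in the 34 fatty acid genes (vertical axis), for the 3 epithelial subclusters, the IELs outside them and the B cells. Each point is a cell, filled for barcode set X1 and open for X2, and the line is the median, which is 0.464% in absorptive precursors and 0.275% in stem cells, with overlapping ranges.

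Among members with at least 20 UMIs in the subclusters, 7 of 20 were at least 2-fold higher in the absorptive precursors than in the other epithelial cells, where 12.9% of all 3013 genes tested were. They were Fabp2, Acadvl, Acadm, Hadh, Etfa, Bdh1 and Hao2. The minimum of 20 UMIs was counted over both sides of a comparison together, here and below. Of the 7, only Fabp2 had 20 UMIs outside the absorptive precursors, and the others passed the minimum only through the group where they were high. The count of 7 therefore describes this selection of genes and is no support for a difference. Without the 14 cells also listed as IELs, Acads (2.29), Hadha (2.2), Hadhb (2.61) and Acaa1a (2.81) passed 2-fold as well. Acsl3 alone was at least 2-fold lower (1 of 20, against 12.6% of all genes). The fold was above 1 for 18 of the 20, where 55.3% of all genes tested were, and the median fold was 1.72, against 1.08 over all genes tested. Low counts limit this to the more abundant members, and the other 14 had fewer than 20 UMIs.

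**Figure D2:**
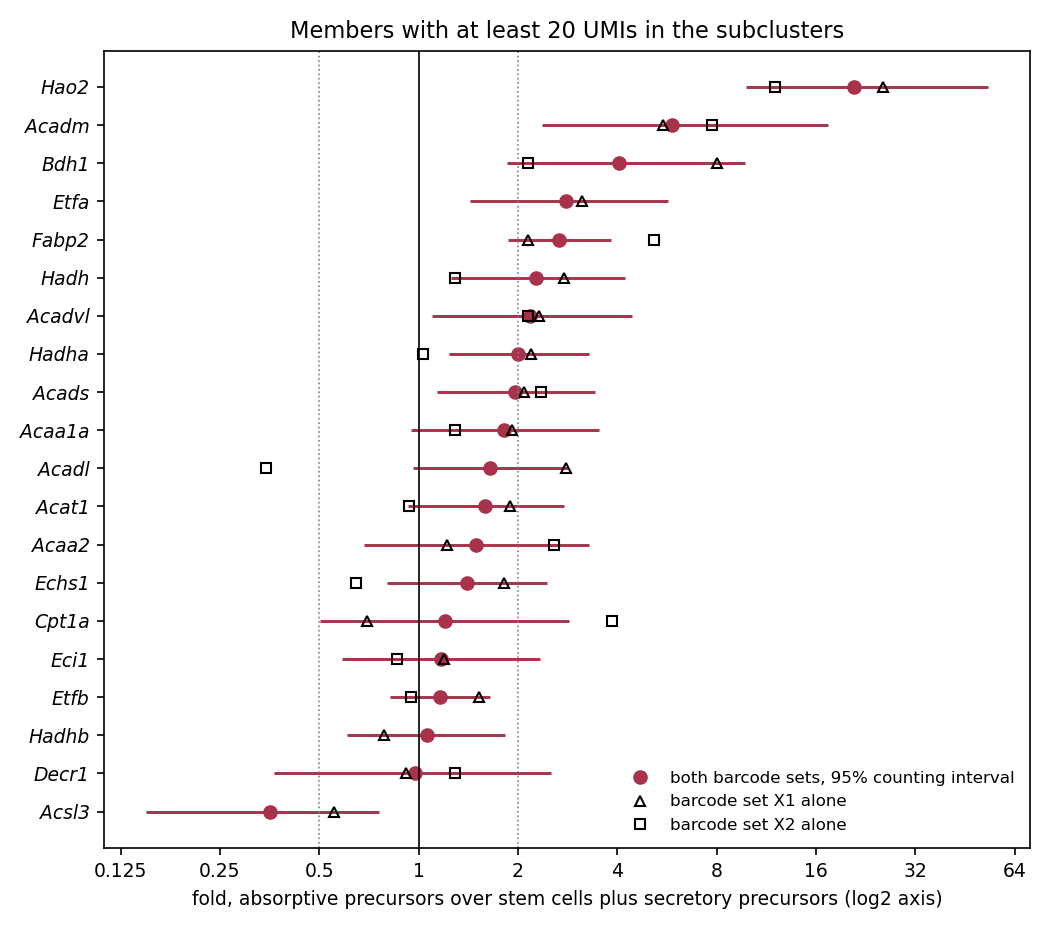
Fold of each member with at least 20 UMIs, absorptive precursors over stem cells and secretory precursors together (log2 axis). Circles with lines are folds with 95% counting intervals, triangles and squares are barcode sets X1 and X2 alone (left out where a group had no UMI), and dotted lines mark 2-fold, which Hao2 passed at 20.8 and Acsl3 on the lower side at 0.36.

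Ordered by role, the members did not move alike. The fold in absorptive precursors was 5.11 (3.56 to 7.5) for the peroxisomal enzymes, 2.39 (1.70 to 3.39) for binding and uptake, 2.21 (1.44 to 3.43) for the ketone body enzymes, 1.68 (1.41 to 2.0) for mitochondrial beta-oxidation, 1.48 (1.11 to 1.98) for electron transfer, 1.30 (0.69 to 2.47) for the carnitine shuttle and 0.40 (0.20 to 0.73) for activation to acyl-CoA. The interval of the carnitine shuttle held 1, and only activation lay below 1 with its whole interval. The activation fold was 0.61 in X1 alone and 0.52 without the 14 cells, short of 2-fold, and without those cells the carnitine fold was 0.81. The folds of the role groups rest on few genes each, and Hao2 gave 112 of the 149 peroxisomal UMIs of the absorptive precursors. Binding and uptake was nearly Fabp2 alone, since Fabp5 and Slc27a4 had few UMIs and Fabp1, Cd36 and Slc27a2 were not analysed.

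**Figure D3:**
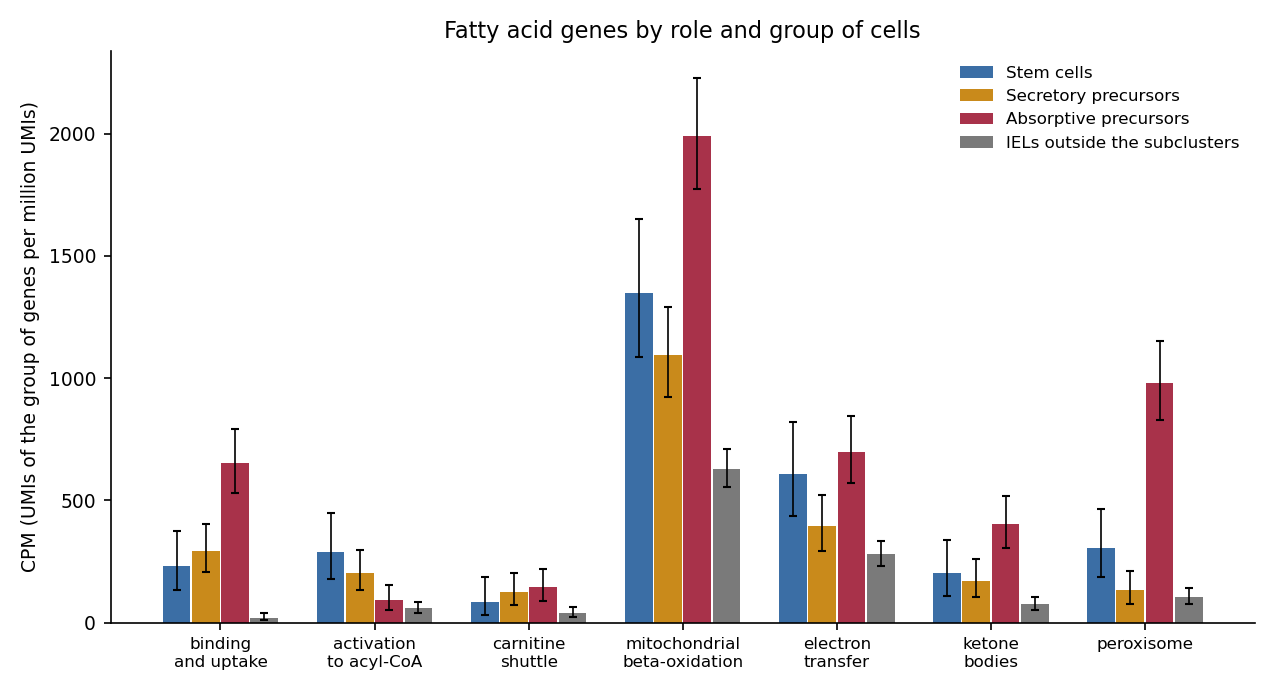
Summed CPM of the members by role (horizontal axis) in the 3 epithelial subclusters and in the IELs outside them, with exact Poisson 95% intervals as error bars. The absorptive precursors are the highest bar in every role shown but activation to acyl-CoA, where they stand at 92.2 CPM and stem cells at 290 CPM.

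Fabp2 encodes the intestinal fatty acid binding protein of the enterocyte cytosol, and the paper names it as an absorptive lineage marker high in this subcluster. Its level was 217 CPM in stem cells (15 UMIs) and 256 CPM in secretory precursors (33 UMIs), and it reached 646 CPM in absorptive precursors (98 UMIs). By barcode set, X1 and X2 gave 586 and 942 CPM in absorptive, 282 and 135 CPM in secretory and 234 and 208 CPM in stem cells, so that absorptive precursors were highest in both. The fold was 2.66 (1.86 to 3.84). A UMI of Fabp2 was in 57.1% of absorptive precursors, against 37.5% in the secretory and 31.2% in the stem cell group, and in 0.276% of the IELs, where the median depth was 1038 UMIs. With each cell thinned to 800 UMIs, the shares were 36.9%, 14.0% and 18.5%, so the absorptive share stayed the highest and the order of the other groups changed. Secretory precursors and stem cells had overlapping intervals (177 to 360 and 122 to 358 CPM). Fabp5, a binding protein of many tissues, had 1 UMI in the 3 subclusters and 3 in the IELs. Slc27a4, a fatty acid transporter with synthetase activity, had 1 UMI in stem cells, 4 in secretory and 1 in absorptive precursors.

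The acyl-CoA synthetases activate long-chain fatty acids. Acsl3, the only one with enough UMIs for a fold and a synthetase of the endoplasmic reticulum and lipid droplets, stood at 188 CPM in stem cells (13 UMIs), 155 CPM in secretory precursors (20 UMIs) and 59.3 CPM in absorptive precursors (9 UMIs). In the absorptive precursors, X1 had 71.3 CPM and X2 had no UMI, while stem cells had 117 and 231 CPM and secretory precursors 132 and 269 CPM. The absorptive fold was 0.36 (0.15 to 0.76), and it was 0.54 without the 14 cells also listed as IELs and 0.55 in set X1 alone, short of 2-fold. No UMI of Acsl3 was found in 362 IELs, which allows a share of cells with a UMI of up to 0.829%. Acsl3 overlaps Utp14b on the same strand, a gene with 9 UMIs. Acsl1, Acsl4 and Acsl5 were too sparse for a fold. Acsl5 had 4, 4 and 3 UMIs in stem cells, secretory and absorptive precursors, Acsl1 had 2, 2 and 1, and Acsl4 had 1, 0 and 1. Acsl4 had 9 UMIs in the IELs and 5 in the B cells.

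Of the carnitine shuttle, Cpt1a, the outer-membrane carnitine palmitoyltransferase and a control point of long-chain oxidation, had 79.1 CPM in absorptive precursors (40.9 to 138), 77.7 CPM in secretory precursors (37.3 to 143) and 43.4 CPM in stem cells (8.96 to 127). The intervals overlapped throughout, and the absorptive fold of 1.20 (0.50 to 2.86) was not distinguishable from 1 at this depth, and it was 0.73 without the 14 cells. X1 and X2 did not give the same order, with 47.5 and 236 CPM in absorptive precursors. Cpt2, the inner-membrane partner, had 1, 4 and 3 UMIs in stem cells, secretory and absorptive precursors, and Slc25a20, the carnitine-acylcarnitine carrier, had 2, 2 and 7.

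The acyl-CoA dehydrogenases open each turn of mitochondrial beta-oxidation and differ in the chain length they prefer. Acadm, for medium chains, had the largest fold of the 4. Stem cells had 1 UMI (14.5 CPM), secretory precursors 5 UMIs (38.9 CPM) and absorptive precursors 27 UMIs (178 CPM, 117 to 259), a fold of 5.86 (2.37 to 17.4). Set X1 had 166 CPM in absorptive, 37.6 CPM in secretory precursors and no UMI in stem cells, and X2 had 236, 44.9 and 23.1 CPM. Absorptive precursors were the highest group in each set, though X2 held only 8 absorptive and 4 secretory precursors. Acadvl, for very long chains, had 165 CPM in absorptive precursors against 77.7 CPM in secretory precursors and 72.4 CPM in stem cells, a fold of 2.17 (1.10 to 4.43), with 2.32 in X1 and 2.15 in X2. Acads, for short chains such as butyrate, had 237 CPM in absorptive precursors and 217 CPM in stem cells but 69.9 CPM in secretory precursors. Its fold was 1.95 (1.13 to 3.42) in absorptive and 0.30 (0.13 to 0.62) in secretory precursors, so that the secretory precursors were the group that stood apart. Acadl, for long chains, had 224 CPM in absorptive precursors, 217 CPM in stem cells and 93.3 CPM in secretory precursors, and its absorptive fold of 1.64 (0.96 to 2.83) became 0.34 in X2 alone. Acadl overlaps the processed pseudogene Gm15793 on the same strand (8 UMIs), and reads of the gene and its copy may not be separable.

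Hadh, the mitochondrial hydroxyacyl-CoA dehydrogenase for shorter chains, had 217 CPM in absorptive precursors (33 UMIs), 159 CPM in stem cells (11 UMIs) and 62.2 CPM in secretory precursors (8 UMIs). The fold was 2.26 (1.25 to 4.21), with 2.76 in X1, 1.29 in X2 and 1.64 as a mean over cells. A UMI was found in 52.4% of cells of the absorptive group, 25.0% of the stem cell group and 21.9% of the secretory group. These shares are not thinned to equal depth, and the median depths were 1939.5, 995.5 and 1820.5 UMIs. Echs1, the short-chain enoyl-CoA hydratase, had 191, 203 and 101 CPM in absorptive precursors, stem cells and secretory precursors, and the absorptive fold of 1.4 (0.80 to 2.46) was not distinguishable from 1. The same held for the thiolase Acaa2 (fold 1.49, 0.68 to 3.29), for Acaa1a, the peroxisomal thiolase (fold 1.81, 0.95 to 3.52), for the enoyl-CoA isomerase Eci1 (fold 1.17, 0.59 to 2.33) and for the dienoyl-CoA reductase Decr1 (fold 0.98, 0.36 to 2.53). Eci2, another isomerase, had 1, 7 and 3 UMIs in stem cells, secretory and absorptive precursors.

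Hadha and Hadhb encode the alpha and beta subunits of the mitochondrial trifunctional protein, which carries out the last 3 steps for long chains. Hadha had 145 CPM in stem cells (10 UMIs), 155 CPM in secretory precursors (20 UMIs) and 303 CPM in absorptive precursors (46 UMIs), a fold of 2.0 (1.23 to 3.28) that lay just under the 2-fold limit before rounding, with 1.03 in X2 alone. Hadhb had 171 CPM in absorptive precursors (26 UMIs), 241 CPM in secretory precursors (31 UMIs) and 14.5 CPM in stem cells (1 UMI). A single secretory cell of 19945 UMIs held 23 of the 31 Hadhb UMIs beside 4 of Hadha. Without that cell the absorptive fold of Hadhb moved from 1.06 (0.61 to 1.83) to 3.38 and the secretory fold from 1.97 to 0.60. Without the 14 cells they were 2.61 and 0.62. Hadha took 39.2% of the UMIs of the pair in secretory precursors (25.8% to 53.9%), 63.9% in absorptive precursors (51.7% to 74.9%), 90.9% in stem cells (58.7% to 99.8%) and 60.0% in the IELs (47.1% to 72.0%). Without the deep cell, 8 Hadhb UMIs remained in the secretory precursors.

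Electron transfer flavoprotein is made of the subunits Etfa and Etfb. Etfb had 492 CPM in stem cells (34 UMIs), 428 CPM in absorptive precursors (65 UMIs) and 303 CPM in secretory precursors (39 UMIs), and its absorptive fold of 1.16 (0.82 to 1.64) was not distinguishable from 1. Etfa had 198 CPM in absorptive precursors (30 UMIs), 86.9 CPM in stem cells (6 UMIs) and 62.2 CPM in secretory precursors (8 UMIs), a fold of 2.79 (1.44 to 5.70). All 30 absorptive Etfa UMIs were in set X1, and 12 were in 1 cell of 20826 UMIs, without which the fold was 1.94. With levels averaged over cells the fold was 1.25. A UMI of Etfa was in 12.5% of stem cells, 21.9% of secretory and 23.8% of absorptive precursors, so the shares of cells differed less than the pooled levels. Etfdh, which hands the electrons to ubiquinone, had 2, 4 and 11 UMIs in stem cells, secretory and absorptive precursors.

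Both ketone body enzymes had their highest level in absorptive precursors. Bdh1, the mitochondrial 3-hydroxybutyrate dehydrogenase, had 184 CPM there (28 UMIs), 86.9 CPM in stem cells (6 UMIs) and 23.3 CPM in secretory precursors (3 UMIs). Its fold was 4.05 (1.86 to 9.76), with 8.02 in X1, 2.15 in X2 and 6.61 without the 14 cells, and X1 and X2 gave 182 and 196 CPM in absorptive precursors. Absorptive precursors held a UMI in 35.7% of cells, against 9.38% in the stem cell group, 6.25% in the secretory group and 2.21% in the IELs, without thinning to equal depth. Acat1, the mitochondrial acetoacetyl-CoA thiolase, had 217 CPM in absorptive, 148 CPM in secretory precursors and 116 CPM in stem cells, and its fold of 1.59 (0.93 to 2.75) was not distinguishable from 1.

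The largest fold of the set belonged to Hao2, a peroxisomal oxidase of long-chain 2-hydroxy acids. Absorptive precursors had 112 UMIs, or 738 CPM (608 to 888), against 4 UMIs in the secretory group (31.1 CPM, 8.47 to 79.6) and 3 UMIs in the stem cell group (43.4 CPM, 8.96 to 127). X1 and X2 gave 776 and 550 CPM in absorptive precursors, 37.6 CPM and no UMI in secretory precursors, and no UMI and 69.2 CPM in stem cells. The absorptive level was the highest in both sets. The fold was 20.8 (9.79 to 53.0), and it ran from 12 to 25.6 over all alternatives. A UMI of Hao2 was in 57.1% of absorptive precursors, against 9.38% in each of the other subclusters and 0.276% in the IELs. Thinned to 800 UMIs per cell, the shares were 33.0% (absorptive), 0.928% (secretory) and 4.85% (stem cells). Of the absorptive precursors, 24 held a UMI of Hao2, 24 held a UMI of Fabp2, 16 held both and 10 neither. Absorptive precursors with a Hao2 UMI had 2990 CPM of the mitochondrial oxidation genes (carnitine shuttle, beta-oxidation and electron transfer) and those without had 2255 CPM. In the other groups, only 3 cells each held Hao2, and the levels with and without it lay in the reverse order. They were 1773 and 2216 CPM in stem cells (48 and 93 UMIs) and 1495 and 1672 CPM in secretory precursors (60 and 148 UMIs). So few cells and UMIs cannot tell that order from equal levels. The median depths in absorptive precursors were 3370.5 and 1262 UMIs, and the part of depth in this was not tested.

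Besides Acaa1a, the other peroxisomal members were sparse. Hsd17b4, the multifunctional enzyme of peroxisomal beta-oxidation, had 3, 2 and 11 UMIs in stem cells, secretory and absorptive precursors, and it overlaps Cd63-ps on the same strand, which had 80 UMIs. Ehhadh, the other peroxisomal bifunctional enzyme, had 6, 2 and 1 UMIs, the reverse order. The regulators were near the limit of detection. Ppara, the PPAR known for inducing beta-oxidation, had 3 UMIs in absorptive precursors and none in the other subclusters, Pparg had 2, 0 and 2 UMIs in stem cells, secretory and absorptive precursors, and the coactivator Ppargc1a had 2, 1 and 5.

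**Figure D4:**
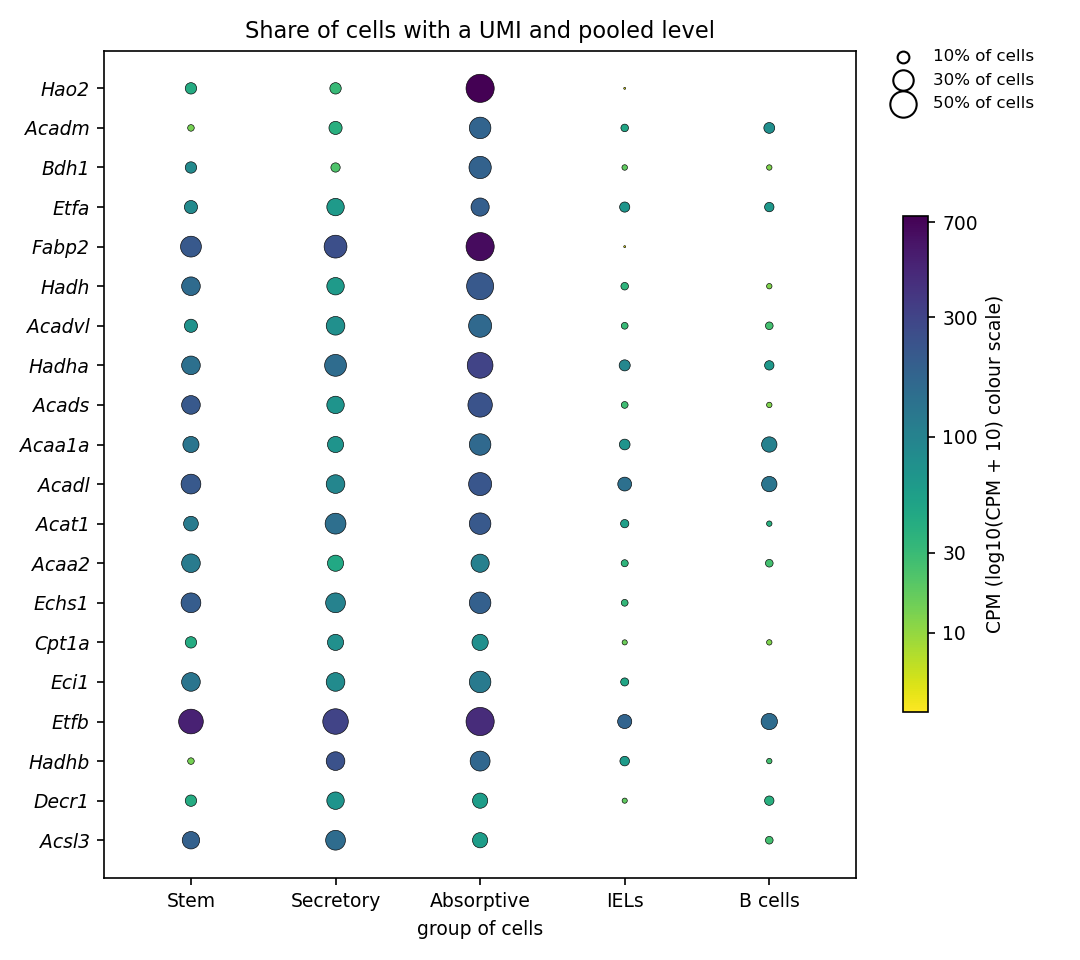
Share of cells with at least 1 UMI (area of the circles) and pooled CPM (colour) for the 20 members with at least 20 UMIs in the subclusters, in the 3 subclusters, the IELs outside them and the B cells. Hao2 and Fabp2 have their largest circles in absorptive precursors (57.1% of cells each) and are in 0.276% of IELs.

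In secretory precursors, none of the 20 members was at least 2-fold higher than in the other epithelial cells (9.16% of all genes were) and 9 were at least 2-fold lower (18.0% of all genes were), with a median fold of 0.51 against 0.84 over all genes tested. The lower members were Hao2 (fold 0.06, 0.016 to 0.157), Bdh1 (0.15, 0.030 to 0.482), Acads (0.30), Acadm (0.31), Hadh (0.31), Etfa (0.38) and Acadl (0.42), with Acaa2 (0.43, 0.14 to 1.08) and Acaa1a (0.45, 0.19 to 0.97). Without the 14 cells Etfa was at 0.66 and Acadl at 0.503, and in X2 alone the Etfa fold turned to 3.09. Fabp2 was just outside at 0.501. Hadhb (1.97), Acsl3 (1.56), Decr1 (1.29) and Cpt1a (1.14) were the members above 1, where 36.2% of all genes tested were. Only 4 secretory precursors were of set X2.

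In stem cells, none of the 20 was at least 2-fold higher (13.1% of all genes were) and 4 were at least 2-fold lower (16.1% of all genes were), namely Fabp2 (fold 0.46, 0.25 to 0.80), Acadm (0.13, 0.003 to 0.76), Hadhb (0.07, 0.002 to 0.41) and Hao2 (0.10, 0.02 to 0.31). The median fold was 0.73 against 0.97 over all genes tested. Without the 14 cells, Bdh1 moved from 0.79 to 0.24, Hadhb to 0.21 and Hao2 to 0.17, Acadvl (0.42), Etfa (0.46) and Acat1 (0.48) were also past 2-fold, and Acadm had no UMI left in stem cells. Acsl3 (1.82, 0.87 to 3.61) was the highest. Activation to acyl-CoA as a group had a stem cell fold of 2.03 (1.12 to 3.56), which was 1.57 without the 14 cells and 1.37 in X1 alone, while mitochondrial oxidation as a whole had 0.90 (0.74 to 1.08).

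The epithelial cluster stood above the immune clusters. In the table of all cells, its 93 cells had 3544 CPM of the 34 genes against 1677 CPM in the nIELs, iIELs and B cells together, a fold of 2.11 (1.93 to 2.32). Of 24 members with at least 20 UMIs, 14 were at least 2-fold higher (19.2% of 6173 genes tested were) and none was 2-fold lower (24.0% of all genes were), and the median fold was 2.13 against 0.93 over all genes. Those higher were the binding protein Fabp2 (6.97), the synthetase Acsl3 (3.51), Cpt1a (2.92), the dehydrogenases Acadvl (2.18), Acads (3.11) and Hadh (3.16), Hadha (2.06), Echs1 (3.14), Eci1 (2.35), Decr1 (2.29), Etfb (2.07), Acat1 (2.73), Bdh1 (2.23) and Hao2 (2.60). In X2 alone Decr1 (0.71) and Hao2 (0.94) turned below 1, and of the 14 members only Fabp2 (2.76), Hadha (3.19) and Etfb (2.02) stayed past 2-fold. Of the members that were too sparse in the subclusters, 4 could be compared here, and all had intervals that held 1, with folds of 1.0 (0.39 to 2.45) for Acsl5, 0.67 (0.27 to 1.5) for Eci2, 1.66 (0.76 to 3.55) for Etfdh and 1.22 (0.51 to 2.72) for Hsd17b4. The fold of the sum depends on how the 14 cells listed in both tables are placed, since 412 of the 654 iIEL UMIs of these genes lay in 11 iIELs that are also in the epithelial subclusters. Counted as epithelial, they raised the fold to 3.11. For Hao2, 57 of 58 iIEL UMIs were in those cells, and for Fabp2 37 of 38. The fold of Fabp2 was 6.97 as listed and 209 with these cells counted as epithelial, and that of Hao2 2.60 and 171. Almost no UMI of either gene was then left on the immune side, with 2.35 CPM of each in the IELs outside the subclusters. The size of these 2 folds is therefore uncertain. Counted so, the fold of Acsl3 went from 3.51 to 30.1, again on very few immune UMIs, since the IELs outside the subclusters had none. Acads went from 3.11 to 6.62, Echs1 from 3.14 to 5.84, Bdh1 from 2.23 to 5.90 and Acadvl from 2.18 to 3.82. Cpt1a went from 2.92 to 4.48 and Hadh from 3.16 to 4.75, and Acaa2 passed 2-fold at 2.53. Acadl (fold 1.05, 0.70 to 1.53), Etfa (1.08) and Hadhb (1.00) had folds near 1 as listed, and Etfa was at 1.86 and Hadhb at 2.97 with these cells counted as epithelial. In the IELs, the mitochondrial oxidation genes stood at 950 CPM, against 2833 CPM in absorptive precursors, 2042 CPM in stem cells and 1617 CPM in secretory precursors, while binding and uptake stood at 21.2 CPM.

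Of 95 other genes of fatty acid, ketone and lipid metabolism on a fixed list, 79 had a row and 26 had at least 20 UMIs in the subclusters. In absorptive precursors 4 of the 26 were at least 2-fold higher (12.9% of all genes were) and 1 was at least 2-fold lower (12.6% of all genes were), so that the share higher was near that over all genes, and their median fold was 1.30, against 1.08 over all genes tested. Acsm3, a mitochondrial synthetase for medium-chain acids, had 34 UMIs in absorptive precursors against 6 in stem cells and 1 in secretory precursors, a fold of 6.33 (2.76 to 16.9). Scd2, a fatty acid desaturase, had a fold of 2.01 (1.38 to 2.95). Ppargc1b, a coactivator of mitochondrial genes, had a fold of 2.51 (1.27 to 5.18) that was 7.06 in X1 and 0.77 in X2. Ucp2, a mitochondrial carrier, was lower at 0.43 (0.21 to 0.83). Neither the ketone body enzyme Oxct1 (1.08) and the sterol synthesis enzyme Hmgcs1 (0.98), nor Hnf4a (1.51) or Ppard (0.84), reached 2-fold.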

How the data were processed

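Sorted colon crypt cells were profiled by Drop-seq. The authors ran the Drop-seq pipeline. The tools named in the submitters' processing notes are Picard 1.137 and STAR 2.5.0, and the builds are mm10 and hg19. Its output was deposited as raw UMI counts by gene symbol and barcode, with both pools in 1 matrix. The annotation, and whether counting used strand, are not given in the sources used here. Of the matrix symbols, 18612 are in GENCODE M21, from which positions on GRCm38 and overlapping genes were taken. Promoters came from RefSeq.

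Barcodes linked the cells to the 4 clusters and 3 subclusters of the authors' lists. UMIs were summed per group and given per 1000000 (CPM), where 0 stood for at most 3 counts. Folds were given for genes with at least 20 UMIs in the groups compared and called at 2-fold. Shares of cells were also computed with each cell thinned to 800 UMIs (subclusters) or 700 UMIs (clusters), leaving out shallower cells (9 stem cells, 3 secretory and 6 absorptive precursors), and with at least 2 UMIs. Doublets were not called, but cells with a UMI of Cd3d, Cd3e, Cd3g, Cd79a, Cd79b or Ms4a1 were left out as an alternative. With 1 sample, no p-value was computed. The members, role groups, pathway list and markers were chosen with earlier results of these data known. All members are reported, those with at least 20 UMIs with levels and folds, and pathway genes only where they passed 2-fold (1 of these is not reported here), with 4 others chosen after their values were seen. Depth was 504 to 23205 UMIs per assigned cell. The computation was tested on simulated data. Python 3.11.15, numpy 2.4.6, scipy 1.17.1, pandas 2.3.3 and matplotlib 3.10.9 were used.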

Additional observations from a re-analysis of the deposited data

Results flagged for a closer look

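The 601 barcodes that the authors' list leaves out of every cluster were not part of any comparison. Their median depth was 212 UMIs, and 36.8% of all their UMIs came from mitochondrial genes. The 34 fatty acid genes had 203 UMIs or 1182 CPM there (1025 to 1356), close to the 1214 CPM of the IELs outside the epithelial subclusters. Fabp2 had 30 UMIs or 175 CPM (118 to 249) in these barcodes and Hao2 had 9 UMIs or 52.4 CPM (24.0 to 99.5), each against 2.35 CPM in the IELs.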

How the results depend on the processing

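Of 582 folds of single members recomputed under an alternative, 531 stayed within the counting interval of the reported value and 3 called folds crossed 1, all in set X2 alone. These were Etfa in secretory precursors (3.09), and Decr1 (0.708) and Hao2 (0.944) in the epithelial cluster against the immune clusters. Among folds short of 2-fold, 11 that left the interval and 33 that stayed within it also lay on the other side of 1. In X2 alone, 54 member folds stayed within the interval, 22 left it and 3 crossed 1. A further 6 folds with a group at 0 gave no value. Of 252 folds of role groups and other sums, 219 stayed within the interval. Of the shares of cells, 191 stayed within theirs and 285 did not, by thinning or when at least 2 UMIs were asked for. The sum of the genes kept its direction in all 4 comparisons. In X2 alone its folds were 1.56 (absorptive precursors), 0.681 (secretory precursors) and 1.49 (epithelial against immune), and without Fabp2 and Hao2, an alternative chosen after seeing the data, 1.52, 0.628, 0.971 (stem cells) and 1.88. For the epithelial cluster it was 2.74 as a mean over cells, 3.11 with the cells of both tables counted as epithelial and 2.33 without the top cell.

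Counts of members past 2-fold moved more. The shares over all genes were computed only for the reported setting, so the counts under other settings cannot be set against all genes. With at least 50 UMIs only 10 members of the subclusters were left to count, and with at least 10 UMIs 25. In absorptive precursors, 3 of 10 were higher with at least 50 UMIs (7 of 20 as reported), 12 at 1.5-fold, 2 of 3 in X2 and 11 of 17 without the cells of both tables, and 3 were lower with at least 10 UMIs but 0 with at least 50 UMIs, in X1, in X2 and without those cells. In secretory precursors, 1 was higher with at least 10 UMIs, 2 at 1.5-fold and 1 as a mean over cells, and 4 of 10 were lower with at least 50 UMIs (9 of 20 as reported) and 2 in X2. In stem cells, 1 was higher with at least 10 UMIs, at 1.5-fold, in X1 and as a mean over cells, and 9 were lower at 1.5-fold, 1 in X2, 8 as a mean over cells and 7 without the cells of both tables. In the epithelial cluster, 2 of 4 were higher in X2 and 1 was lower with at least 10 UMIs. Fewer UMIs in X2 left 3 or 4 members to count there, the stricter UMI minimum lowered the counts by construction, and the cause of the other changes was not tested. No paired analysis was possible because no fold came from a test and cells could not be assigned to a replicate.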
